A study of Mus musculus with 6 samples.

Results

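The 8 genes described here encode the parts of the MHC class I antigen display route: the light chain B2m, the heavy chains H2-K1, H2-D1, H2-Q7 and H2-T23, the peptide transporter subunits Tap1 and Tap2, and the loading factor Tapbp. They were taken by name from the 32285 genes of a single-cell RNA-seq table of mouse sciatic nerve, and all 8 were found. Their transcripts were compared between macrophages and cells that express myelin genes. The table holds 364 cells of 5 libraries from C57BL6/J mice aged 23 weeks. Of these, 163 cells came from 2 libraries of mice on a diet labelled HFD and 201 from 3 libraries of mice on a diet labelled SD. A further HFD sample is listed in the labels and was not analysed here. Nerves of both diets were minced and digested with trypsin and collagenase, and cells were captured with magnetic beads that bind O4, an antigen on the Schwann cell surface. The labels call all cells Schwann cells and do not say whether a library came from 1 mouse or from several. The p-values are therefore taken over libraries and not over mice.

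MHC class I molecules sit on the surface of nearly all nucleated cells and show peptides made inside the cell to CD8 T cells. A heavy chain pairs with beta-2 microglobulin, the product of B2m, in the endoplasmic reticulum. Immunoproteasome subunits help to cut the peptides, the Tap1 and Tap2 heterodimer pumps them into the endoplasmic reticulum, and tapasin, the product of Tapbp, holds the empty heavy chain at the transporter until a peptide binds. H2-K1 and H2-D1 are the classical heavy chains of C57BL/6 mice. H2-Q7 and H2-T23 are non-classical heavy chains of the Qa-2 and Qa-1 families, and the peptide-loaded H2-T23 product is a ligand of the NKG2A receptor of natural killer cells. Interferons raise transcription of these genes, and Schwann cells are known to show little class I at rest.

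B2m lies alone on chromosome 2 and the other 7 genes on chromosome 17. In the GENCODE vM21 annotation of GRCm38, the build that the submitters' notes name as mm10, B2m covers bases 122147686 to 122153083 of chromosome 2. On chromosome 17, H2-K1 covers 33996017 to 34000347, Tap1 34187553 to 34197225, Tap2 34203527 to 34216321, H2-D1 35262730 to 35267499, H2-Q7 35439155 to 35443773 and H2-T23 36029773 to 36032855. Tapbp, from 33915899 to 33929292, overlaps Zbtb22 on its own strand. B2m, H2-T23, Tap1, Tap2 and Tapbp each overlap at least 1 gene on the other strand, and the strand setting of the counting is not given in the sources used here. The heavy chain genes are close paralogs, so reads may have been lost or shared between H2-K1, H2-D1 and H2-Q7, and their counts are uncertain to that extent.

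The start regions of 6 members are shown because the members hold different exact matches there: H2-K1, H2-D1 and H2-Q7 share a match to 1 kappa B pattern that B2m, H2-T23 and Tap1 lack. Each is a RefSeq window of 300 bases on GRCm38.p6, read 5′ to 3′ on the gene's strand, with 250 bases before the start and 50 after it. RefSeq windows were found for 7 of the 8 members, all but Tap2. Capitals mark the matches, on either strand, to an interferon response element core (GAAA, any 2 bases, GAAA), a kappa B motif (GGGATTCCC) and a CCAAT box (CCAAT).
B2m, chr2:122147437-122147736, plus strand:
B2m: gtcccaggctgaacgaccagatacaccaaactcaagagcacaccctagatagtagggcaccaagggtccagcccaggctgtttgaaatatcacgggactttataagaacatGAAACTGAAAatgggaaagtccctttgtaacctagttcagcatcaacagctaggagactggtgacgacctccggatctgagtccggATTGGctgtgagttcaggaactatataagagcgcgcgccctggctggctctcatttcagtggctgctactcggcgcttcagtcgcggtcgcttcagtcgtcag
H2-K1, chr17:34000298-34000597, minus strand:
H2-K1: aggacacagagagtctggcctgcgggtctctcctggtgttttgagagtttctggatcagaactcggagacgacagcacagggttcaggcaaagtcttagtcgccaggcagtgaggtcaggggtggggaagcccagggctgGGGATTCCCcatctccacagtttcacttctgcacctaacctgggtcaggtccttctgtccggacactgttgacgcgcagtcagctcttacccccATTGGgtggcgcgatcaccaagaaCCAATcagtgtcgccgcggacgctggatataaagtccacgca
H2-D1, chr17:35262844-35263143, plus strand:
H2-D1: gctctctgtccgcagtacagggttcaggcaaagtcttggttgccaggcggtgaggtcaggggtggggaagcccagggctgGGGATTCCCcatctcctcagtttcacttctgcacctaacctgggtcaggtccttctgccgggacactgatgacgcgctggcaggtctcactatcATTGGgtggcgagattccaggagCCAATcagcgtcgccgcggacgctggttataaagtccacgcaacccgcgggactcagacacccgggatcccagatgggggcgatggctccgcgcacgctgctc
H2-Q7, chr17:35438905-35439204, plus strand:
H2-Q7: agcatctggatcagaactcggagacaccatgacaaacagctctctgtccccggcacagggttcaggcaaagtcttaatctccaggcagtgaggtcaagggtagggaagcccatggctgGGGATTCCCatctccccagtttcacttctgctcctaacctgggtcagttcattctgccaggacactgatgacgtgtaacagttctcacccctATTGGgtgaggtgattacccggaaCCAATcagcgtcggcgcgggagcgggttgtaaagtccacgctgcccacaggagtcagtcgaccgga
H2-T23, chr17:36032652-36032951, minus strand:
H2-T23: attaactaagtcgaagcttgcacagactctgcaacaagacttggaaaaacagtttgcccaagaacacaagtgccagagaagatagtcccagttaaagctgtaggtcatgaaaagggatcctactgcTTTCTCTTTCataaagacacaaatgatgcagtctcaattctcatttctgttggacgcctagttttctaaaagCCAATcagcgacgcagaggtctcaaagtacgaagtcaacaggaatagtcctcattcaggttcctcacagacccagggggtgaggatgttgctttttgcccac
Tap1, chr17:34187306-34187605, plus strand:
Tap1: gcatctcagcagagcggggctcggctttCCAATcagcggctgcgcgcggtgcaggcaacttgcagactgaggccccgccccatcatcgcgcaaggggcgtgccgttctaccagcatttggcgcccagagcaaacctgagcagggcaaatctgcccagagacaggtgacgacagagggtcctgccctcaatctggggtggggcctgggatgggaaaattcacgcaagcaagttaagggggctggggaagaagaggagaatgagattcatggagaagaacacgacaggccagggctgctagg
H2-K1, H2-D1 and H2-Q7 each held 1 kappa B match, whose first base lay 110, 170 and 132 bases before the start, followed by 2 CCAAT matches. From 30 bases before to 50 bases after the first base of that match, H2-K1 and H2-D1 were identical at 79 of 80 positions. B2m and H2-T23 held 1 interferon element core each, beginning 139 and 124 bases before the start, and no kappa B match. Tap1 and Tapbp held CCAAT matches only, 1 and 2 of them, and the Tap1 window overlaps that of Psmb9, an immunoproteasome gene read in the opposite direction. Of 32851 mouse windows of the same length, 3.44% held the interferon element core, 0.353% the kappa B motif and 37.4% a CCAAT box, and no 2 of the marked matches overlapped. A match describes letters and is not evidence of a used site. Only these letter patterns were searched, so the lack of a match is not evidence that an element is absent.

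The deposited clusters 0 to 4 are named Macrophages, mySC, SCP, repairSC and nmSC and hold 143, 92, 60, 45 and 24 cells. The name Macrophages matched its markers: the 15 macrophage markers summed to 25492 CPM (UMIs of the genes per 1000000 UMIs of the cells) in cluster 0 and to 76.1 CPM in cluster 2. Clusters 1 and 2 carried 19912 and 51853 CPM of 14 myelin and Schwann cell markers, against 471 CPM in cluster 0. The names of clusters 3 and 4 went against their content: cluster 3 held 36 barcodes that end in the same 9 bases and 0 UMIs of 11 of the 14 myelin markers, and cluster 4 held 51596 CPM of 8 fibroblast markers. The 8 markers of T and NK cells, the cells that read class I, had 0 UMIs in every cluster. Depth was low, with 37744 to 349450 UMIs per library and a median of 330.5 to 6608 per cell, and no barcode was shared between libraries.

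Clusters were drawn from the expression of the same cells, so levels by cluster are a description. For a test, cells were taken by markers that hold no class I gene. A macrophage-marker cell had UMIs of at least 3 of 13 macrophage genes and at least 3 times as many macrophage as myelin UMIs, and a myelin-marker cell met the reverse rule with 14 myelin and Schwann cell genes. There were 123 macrophage-marker cells, 114 of them in cluster 0, and 131 myelin-marker cells, 71 in cluster 1 and 59 in cluster 2. The test used the 4 libraries that had at least 3 cells of both classes, so that SD replicate 3, with 2 macrophage-marker cells, was left out.

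Both classes carried class I mRNA, and the macrophages carried more of it. Fitted differences were larger for H2-K1, H2-D1 and H2-T23 than for B2m. These heavy chains passed the filter on low counts through the macrophages, so their differences are a description. The 8 genes summed to 3180 CPM in macrophage-marker cells (exact Poisson 95% interval 3044 to 3321, 2036 UMIs) and to 961 CPM in myelin-marker cells (855 to 1076, 300 UMIs). These intervals cover counting error only. B2m, the light chain common to all class I molecules, had the most UMIs of the 8 in both classes, 835 and 188. Levels are CPM of 3′-end UMIs within the class and are not scaled by gene length. B2m stood at 1226, 1441, 1386 and 988 CPM in macrophage-marker cells of HFD replicates 1 and 2 and SD replicates 1 and 2, against 400, 472, 783 and 535 CPM in myelin-marker cells of the same libraries. Within libraries the ratios were 3.06, 3.05, 1.77 and 1.85. The quasi-likelihood test of edgeR took the library as a block and estimated spread partly from all genes tested. Its p-values therefore do not rest on a gene's own spread over 4 libraries alone. B2m was higher in macrophage-marker cells by 1.31 ± 0.27 on the log2 scale (SE, 4 libraries, edgeR Benjamini-Hochberg adjusted p = 9.26e-06). Of 1617 genes tested, 1055 (65.2%) differed between the classes with 538 (33.3%) higher in macrophage-marker cells and 517 (32.0%) lower, so a difference between these classes was common.

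The classical heavy chains present most peptides to CD8 T cells. H2-K1 had 452, 463, 439 and 536 CPM in macrophage-marker cells of HFD replicates 1 and 2 and SD replicates 1 and 2, against 0, 94.4, 174 and 57.8 CPM in their myelin-marker cells. H2-D1 had 904, 1119, 1081 and 871 CPM in macrophage-marker cells, in the same order of libraries, against 200, 115, 222 and 86.8 CPM in myelin-marker cells. For both genes the macrophage value was higher in 4 of 4 libraries. The fitted differences were 2.41 ± 0.42 for H2-K1 (edgeR adjusted p = 2.89e-07) and 2.89 ± 0.35 for H2-D1 (edgeR adjusted p = 2.73e-12) on the log2 scale (SE, 4 libraries). H2-T23 had 201, 153, 203 and 234 CPM in macrophage-marker cells, against 100, 0, 9.67 and 0 CPM in myelin-marker cells. Its 3 UMIs in myelin-marker cells came from 2 cells, 2 of them in HFD replicate 1, so its fitted difference of 4.07 ± 0.70 (edgeR adjusted p = 1.61e-07) rests on the macrophage side. Without HFD replicate 1 the difference was 5.55. The ratio of the pooled H2-T23 levels was 19.8 with a counting interval of 6.63 to 97.5. With deposited clusters in place of marker-defined cells, cluster 0 against cluster 2 gave 1.05 for B2m (edgeR adjusted p = 0.0547), and cluster 0 against clusters 1 and 2 gave 0.49 for B2m, 1.12 for H2-K1 and 1.03 for H2-D1 (edgeR adjusted p = 0.29, 0.0776 and 0.149).

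**Figure D1:**
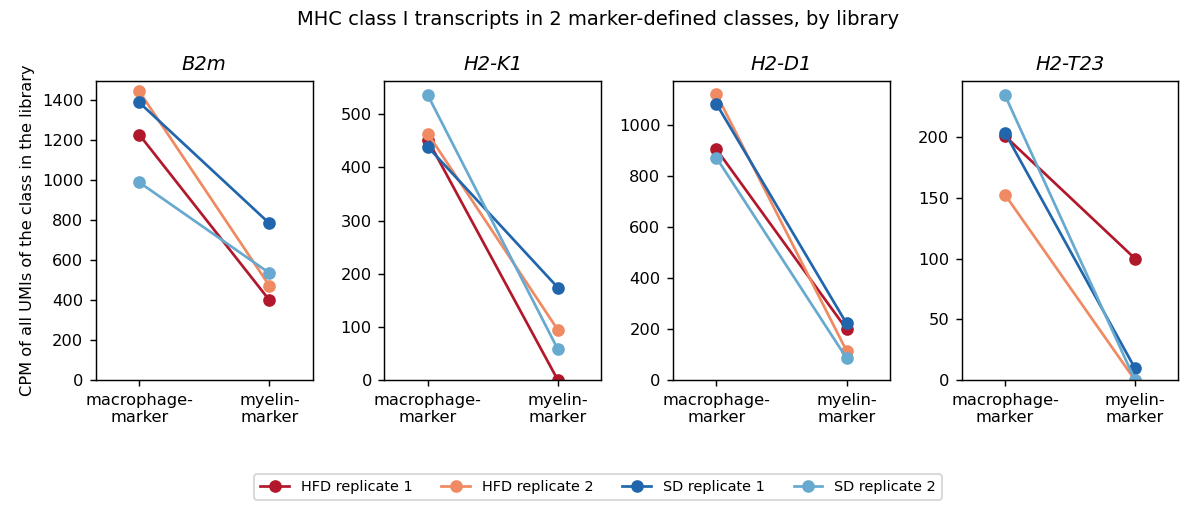
Level of B2m, H2-K1, H2-D1 and H2-T23 in CPM of all UMIs of the class (vertical axes, from 0), with macrophage-marker cells on the left of each panel and myelin-marker cells on the right; each colour and line is 1 library. All 4 lines fall in each panel, to 400 to 783 CPM for B2m and to 86.8 to 222 CPM for H2-D1.

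H2-Q7, Tap1, Tap2 and Tapbp were too sparse to pass the filter on low counts and were not tested between the classes. H2-T23 is nearly absent from myelin-marker cells. H2-K1, H2-D1 and H2-T23 passed through the macrophages, so their p-values and the number of members called are not read as a result. The transporter genes were seen only in 1 of the classes. Tap1 had 16 UMIs in macrophage-marker cells and Tap2 had 25, against 0 UMIs of either in the 131 myelin-marker cells. A count of 0 among 312132 UMIs allows up to 9.61 CPM (3 counts over the class). The Tap2 level in macrophage-marker cells, 39.0 CPM, was 4.06-fold that limit. With 1 library left out, a choice made after the data were seen, the level was 2.59-fold to 3.79-fold the limit. These ratios leave out the counting error of the macrophage UMIs and are not lower bounds. The exact Poisson intervals of Tap2 were 25.3 to 57.6 CPM in macrophage-marker cells and 0 to 11.8 CPM in myelin-marker cells. They cover counting error only and did not overlap. For Tap1, 11 of the 16 UMIs came from HFD replicate 2, 8 of them from 1 cell that also held 11 UMIs of dendritic cell markers. Without that library Tap1 stood at 10.8 CPM in macrophage-marker cells, under the 13.8 CPM that a count of 0 then allows in myelin-marker cells, so no difference was detectable. Tap2 was also at 0 in macrophage-marker cells of SD replicate 2. Tapbp, by contrast, was seen in both classes: 167, 84.8, 114 and 117 CPM in macrophage-marker cells of HFD replicates 1 and 2 and SD replicates 1 and 2, against 100, 52.4, 38.7 and 43.4 CPM in myelin-marker cells. It was higher in macrophage-marker cells in 4 of 4 libraries, with 2, 5, 4 and 3 UMIs on the myelin side. In SD replicate 3 it stood at 0 CPM in 2 macrophage-marker cells and at 207 CPM (5 UMIs) in myelin-marker cells. The pooled ratio, which includes SD replicate 3, was 2.05 with a counting interval of 1.23 to 3.59. Tapbp was higher in cluster 0 than in cluster 2 in 3 of 5 libraries. H2-Q7 had 15 UMIs in macrophage-marker cells and 1 in myelin-marker cells.

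The balance of heavy to light chain mRNA was also set side by side. Macrophage-marker cells held 1.13 UMIs of H2-K1 and H2-D1 per UMI of B2m, and myelin-marker cells held 0.473. In HFD replicates 1 and 2 and SD replicates 1 and 2 the ratio was 1.11, 1.10, 1.10 and 1.42 in macrophage-marker cells, against 0.50, 0.444, 0.506 and 0.27 in myelin-marker cells. The macrophage ratio was higher in 4 of 4 libraries, by 1.49 ± 0.61 on the log2 scale (SD, n = 4). An exact two-sided paired permutation test gave p = 0.125, the smallest that 4 pairs allow. In SD replicate 3, which has 2 macrophage-marker cells, the ratios were 1.60 in macrophage-marker cells and 0.824 in myelin-marker cells. The myelin-marker ratio of HFD replicate 1 rests on 4 heavy chain UMIs, all in 1 cell, and 8 B2m UMIs. By deposited cluster, HFD replicate 1 went the other way, with 1.07 in cluster 0 and 1.33 in cluster 2 (4 heavy chain and 3 B2m UMIs). The other libraries kept the direction.

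**Figure D2:**
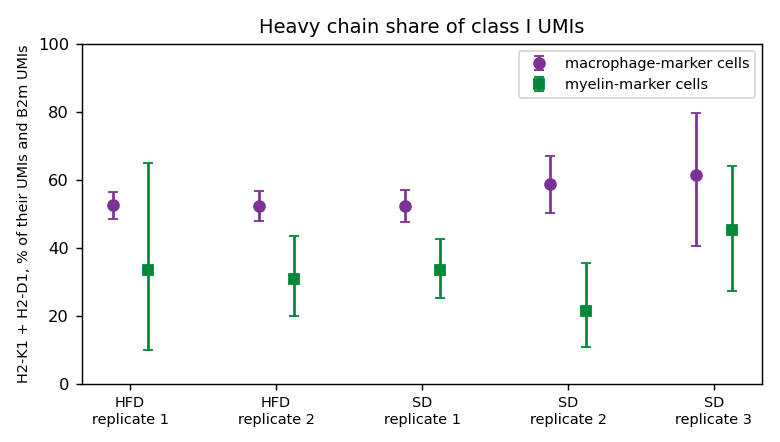
Share of H2-K1 and H2-D1 UMIs among the UMIs of H2-K1, H2-D1 and B2m, in percent (vertical axis, 0 to 100), by library, for macrophage-marker cells (circles) and myelin-marker cells (squares); bars are exact binomial 95% intervals. Circles lie between 52.3% and 61.5% and squares between 21.3% and 45.2%, and the intervals overlap in HFD replicate 1 and SD replicate 3.

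Macrophage and myelin-expressing cells also differed in depth, with a median of 5134 UMIs in macrophage-marker cells and 1391 in myelin-marker cells. The level of B2m in macrophage-marker cells was 1563 CPM in cells under 1000 UMIs, 961 CPM in cells of 1000 to under 4000 UMIs and 1312 CPM in cells of 4000 UMIs and over. In myelin-marker cells the same 3 ranges gave 596, 603 and 603 CPM. The macrophage value of B2m was higher in each range, and in the middle range the counting intervals of the classes overlapped. H2-K1 was not higher in the middle range, with 155 CPM (5 UMIs) in macrophage-marker cells against 161 CPM (16 UMIs) in myelin-marker cells. In the lowest and highest ranges H2-K1 had 381 and 488 CPM in macrophage-marker cells, against 0 and 113 CPM in myelin-marker cells. With cells of 4000 UMIs and over alone, a choice made after the data were seen, the fitted difference was 0.84 for B2m (edgeR adjusted p = 0.0484) and 2.83 for H2-D1 (edgeR adjusted p = 3.14e-08). Thinning to 500 UMIs left out the cells below that depth, 9 of 123 macrophage-marker and 30 of 131 myelin-marker cells. In the cells kept, B2m had 1368 CPM in macrophage-marker cells and 673 CPM in myelin-marker cells, but the fit on 187 genes called neither B2m (-0.68, edgeR adjusted p = 0.165) nor H2-D1 (1.19, edgeR adjusted p = 0.24).

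**Figure D3:**
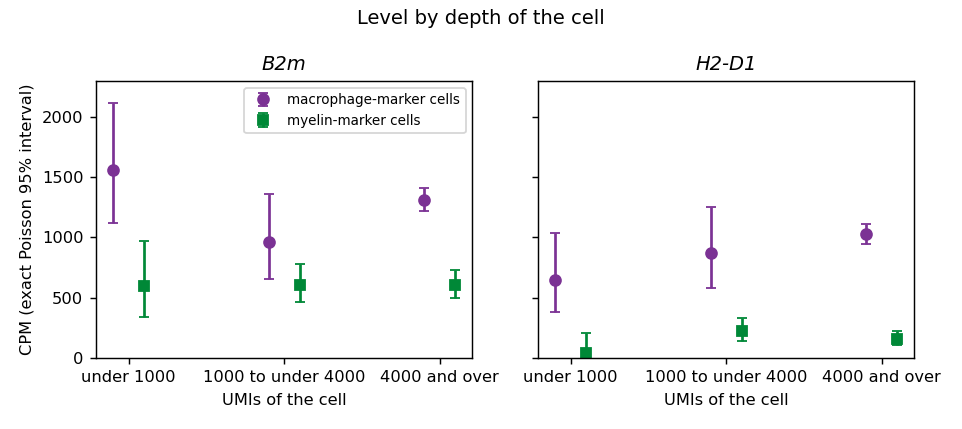
Level of B2m (left) and H2-D1 (right) in CPM (vertical axis, from 0) in cells of 3 ranges of UMI number, for macrophage-marker cells (circles) and myelin-marker cells (squares), pooled over libraries; bars are exact Poisson 95% intervals. B2m in myelin-marker cells stays between 596 and 603 CPM over the 3 ranges.

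Class I levels were also taken in myelin-expressing cells with no UMI of the macrophage genes. Cluster 2 held 19 UMIs of the 15 macrophage markers in 60 cells, and Csf1r, Fcgr1, Cd163, Ms4a7 and Aif1 were at 0. Among its 48 cells without a UMI of the 13 macrophage genes, B2m stood at 582 CPM (exact Poisson 95% interval 482 to 698), H2-D1 at 169 CPM (117 to 237) and H2-K1 at 79.6 CPM (45.5 to 129). These values lay close to those of all 60 cells, at 549, 144 and 96.2 CPM. In the 44 cells with no UMI of any of the 15 markers, B2m stood at 581 CPM (476 to 703). A cell with 0 UMIs of these genes may still hold their transcripts, and the part of free RNA in these levels was not tested.

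By deposited cluster, cluster 0 held 738 of 1191 B2m UMIs, 265 of 402 H2-K1 UMIs, 562 of 870 H2-D1 UMIs and 116 of 141 H2-T23 UMIs. B2m averaged 1244 ± 174 CPM over libraries in cluster 0, 976 ± 604 CPM in cluster 1, 523 ± 220 CPM in cluster 2 (SD, n = 5 libraries each) and 431 ± 267 CPM in cluster 4 (SD, n = 4 libraries with at least 3 cells). Cluster 0 was above cluster 2 in 5 of 5 libraries for B2m, H2-K1, H2-D1 and H2-T23. The HFD replicate 1 value of H2-T23 in cluster 2 rests on 2 UMIs. In SD replicate 3, H2-T23 had 1 UMI in cluster 0 and 0 in cluster 2, so no difference was detectable there. For B2m, clusters 2 and 4 differed by less than their spread. H2-D1 averaged 960 ± 123 CPM in cluster 0, 742 ± 728 CPM in cluster 1, 197 ± 126 CPM in cluster 2 and 319 ± 83.9 CPM in cluster 4. For H2-D1 the spread of cluster 1 was nearly as large as its mean. In cluster 3, 40 of 45 cells had 0 UMIs of all 8 genes.

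The high values of cluster 1 came from few cells, and few of these carried myelin markers. Of its 511 class I UMIs, 61.3% lay in 5 of 92 cells and 86.1% in 10, while 54 cells had none. The 71 myelin-marker cells of the cluster held 16.4% of these UMIs. Cells with other markers held most of the rest: 6 macrophage-marker cells 41.3%, 3 neutrophil-like cells 27.2%, 1 cell with dendritic cell markers 10.6% and 1 with mast cell markers 3.72%. B2m in the 71 myelin-marker cells stood at 818 CPM (609 to 1075), H2-D1 at 256 CPM (147 to 417) and H2-K1 at 208 CPM (111 to 356). Of their 29 H2-K1 and H2-D1 UMIs, 26 came from SD replicate 1, in 3 cells. One of these cells, with 5639 UMIs, held 24 class I UMIs beside 41 myelin and 19 nonmyelinating Schwann cell marker UMIs, and only 1 macrophage marker UMI.

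Cluster 3 carried its class I UMIs in 5 cells, 2 of them neutrophil-like and 3 with macrophage markers. Neutrophil-like cells, taken by UMIs of at least 3 of 7 neutrophil genes, had the highest summed class I level of any kind with at least 2 cells, 7157 CPM (6318 to 8076) in 5 cells of the 2 HFD libraries. In cluster 4, 4 cells with endothelial markers held 2969 CPM (2218 to 3894), against 798 CPM (610 to 1025) in 20 cells with fibroblast markers. Endothelial cells line blood vessels and are known for high class I.

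**Figure D4:**
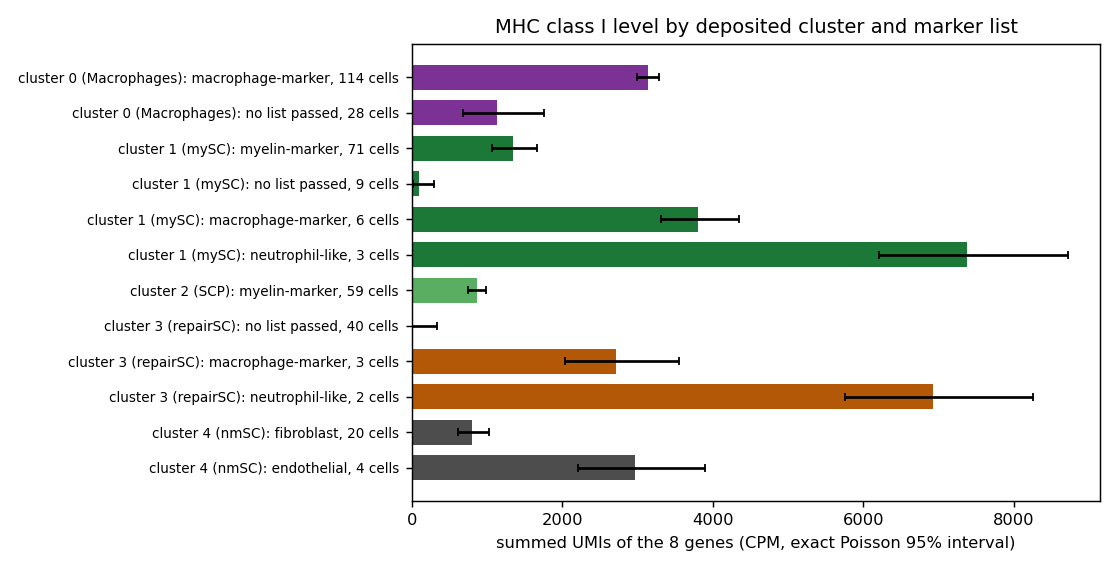
Summed level of the 8 class I genes in CPM (horizontal axis, from 0) for cells of each deposited cluster split by the marker list they pass, pooled over libraries, with the number of cells; bars carry exact Poisson 95% intervals, and kinds of 1 cell are left out. Neutrophil-like cells of clusters 1 and 3 stand highest, at 7382 and 6921 CPM, and the 40 cells of cluster 3 that pass no list stand at 0.

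Other genes of the route were read from the same test between macrophage-marker and myelin-marker cells, in which 33.3% of the 1617 genes were higher in macrophage-marker cells and the median of all genes was -0.06 on the log2 scale. Genes near 0 in myelin-marker cells passed the filter on low counts through the macrophages, so the counts below describe the lists and are not read as support. Of 5 immunoproteasome and activator genes, 2 were tested and both were higher in macrophage-marker cells: Psmb8, a catalytic subunit with 140 UMIs in macrophage-marker cells and 3 in myelin-marker cells, by 4.50 ± 0.70 (edgeR adjusted p = 1.15e-08) and Psme1, an activator subunit, by 2.42 ± 0.57 (edgeR adjusted p = 0.000101). Of 3 constitutive proteasome subunits, Psmb6 alone was tested, at -0.39 ± 0.49 (edgeR adjusted p = 0.492). Of 10 genes for peptide trimming and loading, 5 were tested: the chaperone Hspa5 (1.33 ± 0.39, edgeR adjusted p = 0.00193) and the disulfide isomerase Pdia3 (1.05 ± 0.41, edgeR adjusted p = 0.0203) were higher in macrophage-marker cells. The chaperone Canx was lower there, at -1.07 ± 0.38 (edgeR adjusted p = 0.00987), and Calr and Lnpep did not pass. The median of these 5 was 0.77.

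Of 21 regulators, 9 were tested and 8 were higher in macrophage-marker cells, against 33.3% of all genes. They include Irf8, a myeloid transcription factor with 115 UMIs in macrophage-marker cells and 0 in myelin-marker cells, the interferon gamma receptor chain Ifngr1 at 3.03 ± 0.51 (edgeR adjusted p = 1.11e-07) and the kinase Jak1 at 1.67 ± 0.41 (edgeR adjusted p = 0.000202). Of 28 interferon-induced genes, 27 were in the table and 3 passed the filter: Ifi27l2a, Ifitm3 and Bst2, with 362, 586 and 120 UMIs in macrophage-marker cells, against 0, 27 and 3 in myelin-marker cells. Of those not tested, Ifit2, Xaf1 and Ifit3 went the other way, with 3, 5 and 2 UMIs in macrophage-marker cells, against 20, 17 and 3 in myelin-marker cells. The rest of those seen in either class had more UMIs in macrophage-marker cells. These cells held 640219 UMIs of all genes, against 312132 in myelin-marker cells. Some of the counts were small, such as 1 against 0 for Usp18 and Cxcl9, so they are not read as a difference. Of 10 class II genes, 6 passed the filter, through the macrophages: Cd74, the invariant chain, had 9611 UMIs in macrophage-marker cells and 8 in myelin-marker cells, and H2-Aa, an alpha chain, had 4287 and 4. Of 27 further class I heavy chains and relatives, 18 were in the table and 1 was tested, the Fc receptor gene Fcgrt, which was higher by 1.33 ± 0.42 (edgeR adjusted p = 0.00395).

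The diet comparison asks whether class I mRNA differs between HFD and SD nerves. Over all cells, B2m had 1096 and 1084 CPM in HFD replicates 1 and 2, against 1133, 647 and 742 CPM in SD replicates 1 to 3, so the groups overlapped. H2-D1 had 941 and 750 CPM in HFD libraries, against 745, 427 and 424 CPM in SD libraries, so the lower HFD value nearly met the highest SD value. In edgeR's quasi-likelihood test 5 of 5510 genes passed, all higher on HFD (0.0907%), and none was a class I member. The 6 members tested ranged between 0.46 for H2-K1 and 0.96 for Tap2 on the log2 scale, with adjusted p between 0.943 and 0.954. B2m differed by 0.54 ± 0.45 and H2-D1 by 0.83 ± 0.48 (SE, 2 HFD and 3 SD libraries). Without HFD replicate 1 the value was -0.089 for H2-T23 and -0.18 for Tapbp.

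The mix of cells moved with diet and library. Cluster 0 held 64.0% and 45.7% of the UMIs of HFD replicates 1 and 2, against 48.4%, 39.9% and 21.97% of SD replicates 1 to 3. The 7 neutrophil genes summed to 12485 and 6445 CPM in the HFD libraries, against 57.3, 6.47 and 106 CPM in the SD libraries. The 5 neutrophil-like cells were 4 in HFD replicate 1 and 1 in HFD replicate 2. HFD replicate 1 also held 66270 CPM of 5 haemoglobin and erythroid genes, against 0 CPM in the other libraries. Without the neutrophil-like cells B2m differed by 0.45 and H2-D1 by 0.59 over all cells, and 0 genes passed; the part of the erythroid UMIs and of the share of cluster 0 was not tested. The library folders carry 2 number prefixes, one shared by HFD replicate 1 and SD replicates 1 and 2, the other by HFD replicate 2 and SD replicate 3. Within these prefixes B2m over all cells differed by 0.18 and 0.55 on the log2 scale, H2-D1 by 0.57 and 0.82, and H2-K1 by 0.49 and -0.21.

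Within macrophages the diets were close together. In cluster 0, B2m had 1261 and 1255 CPM in HFD replicates 1 and 2, against 1422, 957 and 1327 CPM in SD replicates 1 to 3. H2-K1 had 460 and 393 CPM in HFD libraries, against 453, 519 and 965 CPM in SD libraries, and the last value rests on 8 UMIs in 1 of 8 cells, which also holds all 8 H2-D1 UMIs of that library's cluster. H2-D1 had 890 and 938 CPM in HFD libraries, against 1164, 844 and 965 CPM in SD libraries. The HFD values of B2m and H2-D1 lay inside the range of the SD values. H2-K1 and H2-D1 summed had 1350 and 1331 CPM in HFD libraries, below the 1617, 1363 and 1930 CPM in SD libraries. The test used the 4 libraries with at least 10 cells of the cluster and called 1 of 2108 genes (0.0474%), lower on HFD and not a member. B2m differed by 0.01 ± 0.28 with an approximate 95% interval of -0.54 to 0.56, H2-K1 by -0.23 ± 0.32, H2-D1 by -0.21 ± 0.29, H2-T23 by -0.35 ± 0.39 and Tapbp by -0.09 ± 0.59 (SE, edgeR adjusted p between 0.943 and 0.998). Within the folder prefixes B2m differed by -0.02 and -0.08.

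In the myelin-rich cluster 2, B2m had 200 and 472 CPM in HFD replicates 1 and 2, against 679, 490 and 771 CPM in SD replicates 1 to 3. The value of HFD replicate 1 rests on 3 UMIs in a cluster of 3 cells. The difference was -0.79 ± 0.62 (approximate 95% interval -2.01 to 0.42, edgeR adjusted p = 1), and 0 of 1019 genes passed in the cluster; at an unadjusted p under 0.05 there were 12 higher and 4 lower on HFD, and DESeq2 called 0. H2-D1 differed by -0.02 ± 0.97. Whether the diet effect differs between clusters 0 and 2 was tested by an interaction over 2257 genes, of which 0 passed (unadjusted 21 positive and 4 negative, 0 by DESeq2), and B2m gave 1.52 (approximate 95% interval -1.13 to 4.16, edgeR adjusted p = 1).

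**Figure D5:**
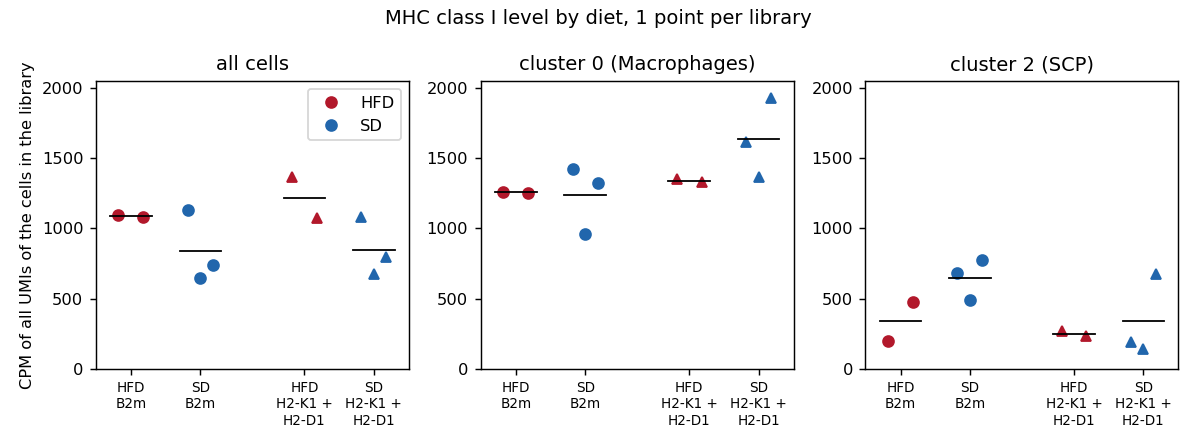
Level of B2m (circles) and of H2-K1 and H2-D1 summed (triangles) in CPM (vertical axes, from 0) for every cell, for cluster 0 and for cluster 2 (3 panels), with HFD libraries left of SD libraries; each point is a library and each line the mean. In cluster 0 the HFD points for B2m, 1261 and 1255 CPM, lie inside the SD range of 957 to 1422 CPM. Those for the summed heavy chains, 1350 and 1331 CPM, lie below the SD range of 1363 to 1930 CPM.

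In cluster 1, H2-D1 had 1011 and 1732 CPM in HFD replicates 1 and 2, against 922, 44.2 and 0 CPM in SD replicates 1 to 3. In this cluster 52 of 656 genes passed (7.93%), 45 higher (6.86%) and 7 lower (1.07%) on HFD. H2-D1 differed by 2.47 ± 1.04 (edgeR adjusted p = 0.119), H2-K1 by 1.51 ± 1.01 (edgeR adjusted p = 0.369) and B2m by 1.25 ± 0.99 (edgeR adjusted p = 0.456), so none passed. Without SD replicate 1 H2-D1 differed by 5.55 (edgeR adjusted p = 0.00588), against SD libraries with 1 and 0 UMIs of it. In the 71 myelin-marker cells of the cluster H2-D1 was at 0 in both HFD libraries, and at 590, 49.5 and 0 CPM in SD replicates 1 to 3. Leaving out the neutrophil-like cells left 4 of 562 genes past the threshold.

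Over 21 sums of a library and a cluster, and among 758 genes, the genes most like B2m by Pearson correlation of log2(CPM + 10) were Actb (0.919), Fau (0.913), Tmsb4x (0.907), Rpl5 (0.892) and Rplp2 (0.887). Those most like H2-K1 and H2-D1 summed included Rps28 (0.939) and Rpl12 (0.937). H2-K1 and H2-D1 ranked at 67 and 104 for B2m, with 0.784 and 0.725. The sums share libraries and differ in depth and in cell make-up, so these values are a description.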

How the data were processed

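The authors deposited UMI counts per gene and cell of 10x Genomics 3′ v2 libraries, with a table that gives each cell its sample, diet, cluster and cluster name; Cell Ranger 3.1.0 and mm10 are named per the submitters' processing notes. The sources used here name no other step or filter of the authors. The highest mitochondrial share of a deposited cell is 4.97%. Cells whose table name is Ctrl were taken as SD, the only other diet label. The 2 number prefixes of the library folders come from the deposited sample key, which does not say what they mark. No cell was removed and no doublet caller was run.

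From these counts, levels were computed as CPM of all UMIs of a set of cells, and 95% intervals as exact Poisson or Clopper-Pearson. Tests ran on UMI counts summed per library: edgeR 4.0.16 (R 4.3.3), filterByExpr, TMM, robust quasi-likelihood, Benjamini-Hochberg over all genes tested, threshold 0.05. DESeq2 1.42.0 was an alternative. The fit was also run on simulated data with known changes, the same spread for every gene and no library effect. That run does not give the error rate for the sparse sums of these data. Thinning kept 500 UMIs per cell.

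The members, gene lists, markers and tests were chosen with earlier results of these data known. Named genes are the members, up to 3 genes of lowest p per list and direction, and genes among the 5 most correlated with B2m and with the summed H2-K1 and H2-D1; not all of the second set is reported here.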

Additional observations from a re-analysis of the deposited data

How the results depend on the processing

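Between macrophage-marker and myelin-marker cells, 1055 genes passed in the reported fit, 2195 without a filter on low counts, 652 with deposited cluster 0 against cluster 2, 576 with cluster 0 against clusters 1 and 2, 120 after thinning to 500 UMIs and 164 after thinning and scaling by total UMIs. Cluster 0 against cluster 2 gave 1.05 for B2m (edgeR adjusted p = 0.0547). Cluster 0 against clusters 1 and 2 gave 0.49 for B2m, 1.12 for H2-K1 and 1.03 for H2-D1, none past the threshold. Cluster 1 holds the macrophage-marker and neutrophil-like cells described above, and their part in these values was not tested. Thinning turned B2m to -0.68 (edgeR adjusted p = 0.165) and left H2-D1 at 1.19. There the TMM factors, from 187 genes, were 1.21 to 1.78 in macrophage sums and 0.561 to 0.735 in myelin sums, against 0.85 to 0.962 and 1.06 to 1.19 in the reported fit; with total UMIs in place of TMM, chosen after seeing the data, B2m was 0.66 (edgeR adjusted p = 0.149), H2-D1 2.48 and the median of all 187 genes 1.49. Unthinned, total UMIs moved the split of calls to 470 higher and 617 lower in macrophage-marker cells, against 538 and 517, and the median of all genes to -0.38. Over the alternatives that gave a value, the highest adjusted p was 0.29 for B2m, 0.24 for H2-D1, 0.0776 for H2-K1, which the thinned fits could not include, and 0.0062 for H2-T23, which also gave no value in cluster 0 against cluster 2 or in cells of 4000 UMIs and over. Leaving out 1 library gave 1.11 to 1.57 for B2m, 2.30 to 2.99 for H2-K1, 2.65 to 3.13 for H2-D1 and 3.60 to 5.55 for H2-T23, the last without HFD replicate 1.

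For diet, all cells gave 5 genes in the reported fit, 9 with DESeq2, 47 without the filter, 57 with the folder prefix as a term, 8 without the repeated-end barcodes, 0 without neutrophil-like cells, 20 without these and with the prefix as a term, and 0 to 54 leaving out 1 library (0 without SD replicate 1, 54 without HFD replicate 2). Cluster 0 gave 4 without the filter and 2 to 26 leaving out 1 library (26 without SD replicate 1, 17 without HFD replicate 1). Cluster 2 gave 2 without the filter, 1 with the prefix, 2 with at least 5 cells and 0 to 4 leaving out 1 library. Cluster 1 gave 8 without the filter, 4 without neutrophil-like cells, 0 in myelin-marker cells alone and 22 to 99 leaving out 1 library. The interaction gave 0 to 1. For replicate numbers shared by the diets, correlations of deviations from the diet mean lay between -0.095 and 0.282. With 2 HFD libraries each value is mirrored, with opposite sign, by the other HFD library. This check therefore could not settle whether the numbers pair the samples. The replicate block gave 64 genes in all cells, 5 in cluster 0, 2 in cluster 2 and 22 in cluster 1, with no member called. No member followed passed in any diet alternative run except H2-D1 in cluster 1 without SD replicate 1. Uncalled values changed sign for H2-T23 (-0.0888 to 1.20 leaving out 1 library) and Tapbp (-0.18 to 1.14) in all cells. In cluster 0 they did so for B2m (-0.0025 with RLE scaling, -0.0042 with DESeq2, -0.29 to 0.40 leaving out 1 library), H2-D1 (-0.46 to 0.12) and Tapbp (0.0274 without the filter, 0.48 with the prefix, 0.0562 with at least 3 cells, -1.30 to 0.48 leaving out 1 library), and in cluster 2 for H2-D1 (0.74 with the replicate block, -0.36 to 0.40 leaving out 1 library). The causes were not tested. Depth limits Tap1, Tap2 and H2-Q7, with 23, 39 and 21 UMIs in all.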
